A study of Mus musculus with 8 samples.

Results

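The respiratory chain moves electrons from NADH and succinate to oxygen through complexes I to IV in the inner mitochondrial membrane, and complex V, the ATP synthase, uses the proton gradient this builds to make ATP. Its subunits come from separate genomes: most are nuclear genes translated in the cytosol and imported, and a few core subunits of complexes I, III, IV and V are encoded in the mitochondrial DNA, transcribed there as long polycistronic RNAs and translated on mitochondrial ribosomes. Complex II is wholly nuclear encoded, and cytochrome c is the soluble carrier between complexes III and IV. The genes described here were the protein-coding genes whose symbols match a pattern for complexes I to V or cytochrome c. The pattern uses no measured value, but it was set with earlier results of these data known. It also takes in the inhibitor Atp5if1, an entry named Cox5b-ps and separate entries of the same name, Atp5po. Counts of genes are therefore not counts of structural subunits. The pattern matched 104 of the 56748 genes in the count tables. Of these, 91 were nuclear encoded (39 in complex I, 4 in complex II, 9 in complex III, 1 for cytochrome c, 19 in complex IV and 19 in complex V) and 13 were mitochondrially encoded (7 in complex I, 1 in complex III, 3 in complex IV and 2 in complex V). The split by complex follows the symbols, so Ndufa4, whose protein is now known as a subunit of complex IV, stands under complex I.

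The libraries came from bone marrow-derived mast cells (BMMCs), grown in IL-3 from 4 C57BL/6 mice and sequenced without stimulation. Cells were either transfected with Cas9 ribonucleoproteins against Mettl3 (Mettl3-RNP, 4 libraries, genotype label Mettl3 KO) or mock transfected (Pulsed, 4 libraries). Mettl3 is the catalytic subunit of the complex that writes N6-methyladenosine (m6A) into mRNA. Libraries with the same replicate number were taken as a pair from the same mouse, which the labels do not state. The comparison asks how mast cell transcripts differ when Mettl3 is depleted. The Mettl3-RNP cells were an unselected population in which untargeted cells remained, and the mock control carried no Cas9 complex, so the effect of a ribonucleoprotein as such cannot be told apart from that of losing Mettl3.

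The libraries held 32643260 to 45324826 counts. Mettl3 was at 25.9, 24.5, 11.2 and 26.5 CPM (counts scaled to a common library size) in Pulsed 1 to 4 and at 12.3, 9.18, 4.88 and 9.21 CPM in Mettl3-RNP 1 to 4, with differences in log2 CPM of -1.07 to -1.52 within pairs. Immediate early genes differed between pairs: their median log2 CPM was 9.51 and 9.81 in the replicate 3 libraries, 1.83 and 2.18 in the replicate 4 libraries and 5.32 to 7.94 in the rest, and Mettl3-RNP 2 had 287 CPM over 1546 odorant and vomeronasal receptor genes against 48.3 to 167 CPM in the others. All 10 mast cell markers were expressed, with a summed level of 43410 to 61100 CPM in Pulsed and 38460 to 54191 CPM in Mettl3-RNP. Among them the protease gene Cpa3 was lower (log2 fold change -0.37, adjusted p = 0.033). Most of the list went the other way: 6 of the 10 were fitted higher and 4 lower, with a median log2 fold change of 0.10. In all 4 pairs, 1 marker was higher and 1 lower. Of 6 neutrophil markers none passed the count filter, S100a8, S100a9, Elane and Camp had 0 counts, and macrophage markers summed to 5.50 to 9.87 CPM in Pulsed and 4.93 to 29.1 CPM in Mettl3-RNP. Among the macrophage markers Adgre1 was lower (log2 fold change -1.13, adjusted p = 0.044) and Cd68 had differences in log2 CPM of -0.43, 2.89, 0.75 and 3.10 in pairs 1 to 4 (adjusted p = 0.142). Basophil markers summed to 565 to 682 CPM in Pulsed and 539 to 857 CPM in Mettl3-RNP, with Il18rap lower (log2 fold change -0.79, adjusted p = 0.032) and 3 of the 4 below Pulsed in every pair. The most abundant of them, Cd200r3, went the other way, at a mean of 572 CPM in Pulsed and 688 CPM in Mettl3-RNP and above Pulsed in every pair (log2 fold change 0.25, adjusted p = 0.151). Erythroid markers summed to 15.3 to 27.1 CPM in Pulsed and 8.90 to 13.8 CPM in Mettl3-RNP, with the carbonic anhydrase gene Car2 lower (log2 fold change -0.95, adjusted p = 0.027). These 4 marker calls were lost without replicate 2 (adjusted p of 0.103 to 0.159), Adgre1 was lost without any one pair, Il18rap without replicate 1 or 3 and Cpa3 without replicate 3 or 4. The part of these shifts in what follows was not tested. In such bulk RNA, fewer cells of a type and less RNA per cell cannot be told apart.

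The 6 mitochondrially encoded genes that are repeated almost whole in the nuclear genome had the lowest levels of the 13. In the GRCm39 assembly, a minus-strand stretch of chromosome 1 (chr1:24650616-24655265) matches bases 6394 to 11042 of the mitochondrial genome with 1 substitution and 1 inserted base over 4649 mitochondrial bases. It begins inside mt-Co1 and ends inside mt-Nd4, and it contains the whole of mt-Co2, mt-Atp8, mt-Atp6, mt-Co3, mt-Nd3 and mt-Nd4l. The edge in mt-Co1 is shown first, from chrM:6364-6423 (plus strand) and chr1:24655236-24655295 (minus strand), with the part inside the copy in capitals, since from there on both places have the same sequence.
mt-Co1, mitochondrial: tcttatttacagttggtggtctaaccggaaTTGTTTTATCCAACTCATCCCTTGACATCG
mt-Co1, chromosome 1: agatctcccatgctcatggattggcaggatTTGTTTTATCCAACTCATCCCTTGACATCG
The first 60 bases of mt-Co2 (chrM:7013-7072, plus strand, and chr1:24654587-24654646, minus strand) show a gene that is identical in both places.
mt-Co2, mitochondrial: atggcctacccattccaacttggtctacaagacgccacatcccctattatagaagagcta
mt-Co2, chromosome 1: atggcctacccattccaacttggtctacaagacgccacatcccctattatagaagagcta
The first 60 bases of mt-Nd3 (chrM:9459-9518, plus strand, and chr1:24652141-24652200, minus strand) hold the 1 substitution, T3C counted from the first base of the gene, which is in capitals.
mt-Nd3, mitochondrial: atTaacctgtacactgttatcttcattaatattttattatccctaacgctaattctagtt
mt-Nd3, chromosome 1: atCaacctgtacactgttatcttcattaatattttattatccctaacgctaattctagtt

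The read length was 50 bases, so the share of each transcript's 50-base windows that occur exactly elsewhere in the nuclear genome was counted. It was 100% for mt-Co2, mt-Co3, mt-Atp6, mt-Atp8 and mt-Nd4l and 99.0% for mt-Nd3. These 6 genes had 2.92 (mt-Nd3) to 26.0 (mt-Co2) CPM per kb of transcript, as means over the groups. The share was 62.2% for mt-Nd4, 51.1% for mt-Co1, 8.29% for mt-Nd2, 7.61% for mt-Nd5 and 0% for mt-Nd1 and mt-Cytb, and these 6 genes had 1632 (mt-Nd4) to 9939 (mt-Co1) CPM per kb. mt-Nd6, the only member on the light strand, had no such window and 88.4 CPM per kb. mt-Nd6 overlaps the end of mt-Nd5 on the opposite strand and whether counting used strand is not given in the sources used here, so its reads and antisense reads cannot be told apart.

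**Figure D1:**
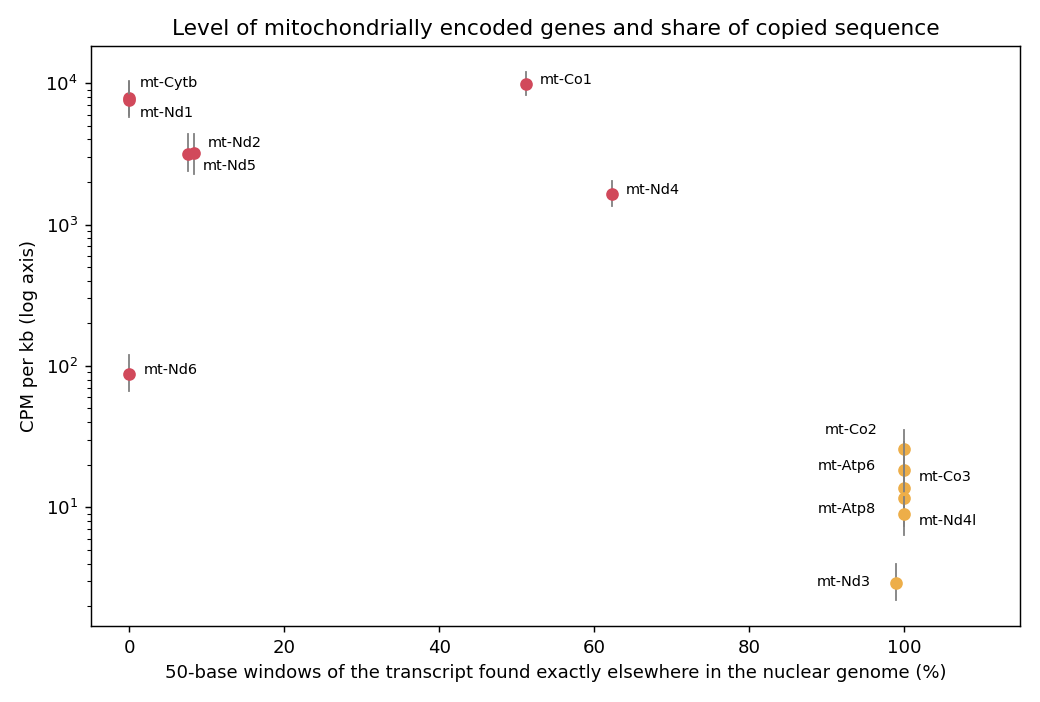
Level of the 13 mitochondrially encoded genes (CPM per kb of transcript, log axis) against the share of their 50-base windows found exactly elsewhere in the nuclear genome. Points are the mean of the group means and lines run from the lowest to the highest of the 8 libraries. The 6 genes at 99.0% or more lie between 2.92 and 26.0 CPM per kb, and apart from mt-Nd6 the others lie above 1600.

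The counts of the copied genes were below those given to the pseudogenes annotated on the chromosome 1 copy. mt-Co2 had 852, 634, 836 and 697 counts in Pulsed 1 to 4 and 577, 677, 495 and 498 in Mettl3-RNP 1 to 4. Its copy Gm28661 had 1036, 729, 862 and 707 counts and 625, 810, 571 and 596 counts in the same libraries. The ratio of mt-Co2 to Gm28661 thus lay between 0.822 and 0.986 in all 8 libraries. It lay between 0.629 and 0.796 for mt-Co3 and its copy Gm28437, and between 0.344 and 0.419 for mt-Atp6 and Atp6-ps. For mt-Nd4l and Gm10222 it was 0.426 to 0.583, and for mt-Nd3 and Gm28438 it varied more, from 0.124 to 0.645. For mt-Co1, of which 31.0% of the bases lie in the copy, the ratio to its copy Gm29216 was 907 to 1149. How reads that match both places were handled in counting is not given in the sources used here, and its part in the low counts of the 6 genes was not tested.

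All 13 mitochondrially encoded genes had fitted values below Pulsed, and none passed the adjusted threshold. edgeR's quasi-likelihood test was paired by replicate number and adjusted over all 14942 genes tested. It called 3.74% of all genes at an adjusted p of 0.05 or less, 1.39% lower and 2.35% higher in Mettl3-RNP. It called 0 of the 13, with 10 at an unadjusted p under 0.05, against 22.5% of all genes, and the smallest adjusted p at 0.056 (mt-Atp6). limma-voom, which called 4.30% of all genes, also called 0. DESeq2 called 6 of the 13 and 9.70% of all genes, and a limma fit after removeBatchEffect, the correction the study names, called 10 of the 13 and 30.5% of all genes. The members they called were lower. The median log2 fold change was -0.33, against -0.001 over all genes tested, and 9 of the 13 were lower in 4 of 4 pairs, against 16.0% of all genes.

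mt-Co1, the catalytic core of cytochrome c oxidase and the highest of all members, had 17435, 15271, 18440 and 14246 CPM in Pulsed 1 to 4 and 15377, 12694, 14675 and 14712 CPM in Mettl3-RNP 1 to 4. The groups overlapped, and pair 4 went the other way. The fitted log2 fold change was -0.18 (SE 0.08, adjusted p = 0.237). mt-Cytb, the mitochondrially encoded subunit of complex III, had 9508, 8937, 11891 and 8101 CPM in Pulsed and 8326, 6798, 8741 and 9209 CPM in Mettl3-RNP, with the reverse order again in pair 4 (log2 fold change -0.21, SE 0.11, adjusted p = 0.302).

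The complex I core subunits mt-Nd1, mt-Nd2, mt-Nd4 and mt-Nd5 were lower in all pairs, least in pair 4. mt-Nd2 had 3999, 3358, 4519 and 3106 CPM in Pulsed and 3126, 2381, 3403 and 2956 CPM in Mettl3-RNP. Each Mettl3-RNP library was below its own Pulsed partner, and the groups overlapped (log2 fold change -0.33, SE 0.09, adjusted p = 0.072). mt-Nd4 had 2593, 2256, 2790 and 2152 CPM in Pulsed and 2184, 1902, 2242 and 1872 CPM in Mettl3-RNP, with differences in log2 CPM of -0.25, -0.25, -0.32 and -0.20 in pairs 1 to 4 (fitted -0.25, SE 0.07, adjusted p = 0.073). mt-Nd1 and mt-Nd5 had fitted log2 fold changes of -0.27 each, with adjusted p of 0.112 and 0.149. mt-Nd6 did not overlap between groups, at 46.8, 61.8, 52.9 and 47.5 CPM in Pulsed and 42.4, 34.2, 40.9 and 40.4 CPM in Mettl3-RNP (log2 fold change -0.40, SE 0.12, adjusted p = 0.097).

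The fitted log2 fold changes of the 6 copied genes had their median at -0.49, on far fewer counts, against -0.27 for the other 7, and the ranges of the 2 sets overlapped. mt-Atp6, the proton channel subunit of ATP synthase, had 19.6, 11.96, 14.97 and 12.95 CPM in Pulsed and 10.7, 9.998, 11.2 and 8.64 CPM in Mettl3-RNP. The groups did not overlap, and the gap was widest in pair 1 (log2 fold change -0.53, SE 0.12, adjusted p = 0.056). mt-Co3, a core subunit of complex IV, had 17.1, 9.61, 13.1 and 10.9 CPM in Pulsed and 8.94, 8.71, 9.37 and 7.64 CPM in Mettl3-RNP, again without overlap (log2 fold change -0.52, SE 0.14, adjusted p = 0.080). mt-Atp8, the other ATP synthase subunit, had the lowest fitted value of all members at -0.68 (SE 0.28, adjusted p = 0.203), with 4.28, 1.88, 2.46 and 3.20 CPM in Pulsed and 1.51, 1.94, 1.94 and 1.71 CPM in Mettl3-RNP. It was lower in 3 of 4 pairs. mt-Co2 had a log2 fold change of -0.36 (adjusted p = 0.104) and mt-Nd4l -0.47 (adjusted p = 0.201), and mt-Nd3, at 0.771 to 1.38 CPM, had -0.26 (SE 0.34, adjusted p = 0.703).

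**Figure D2:**
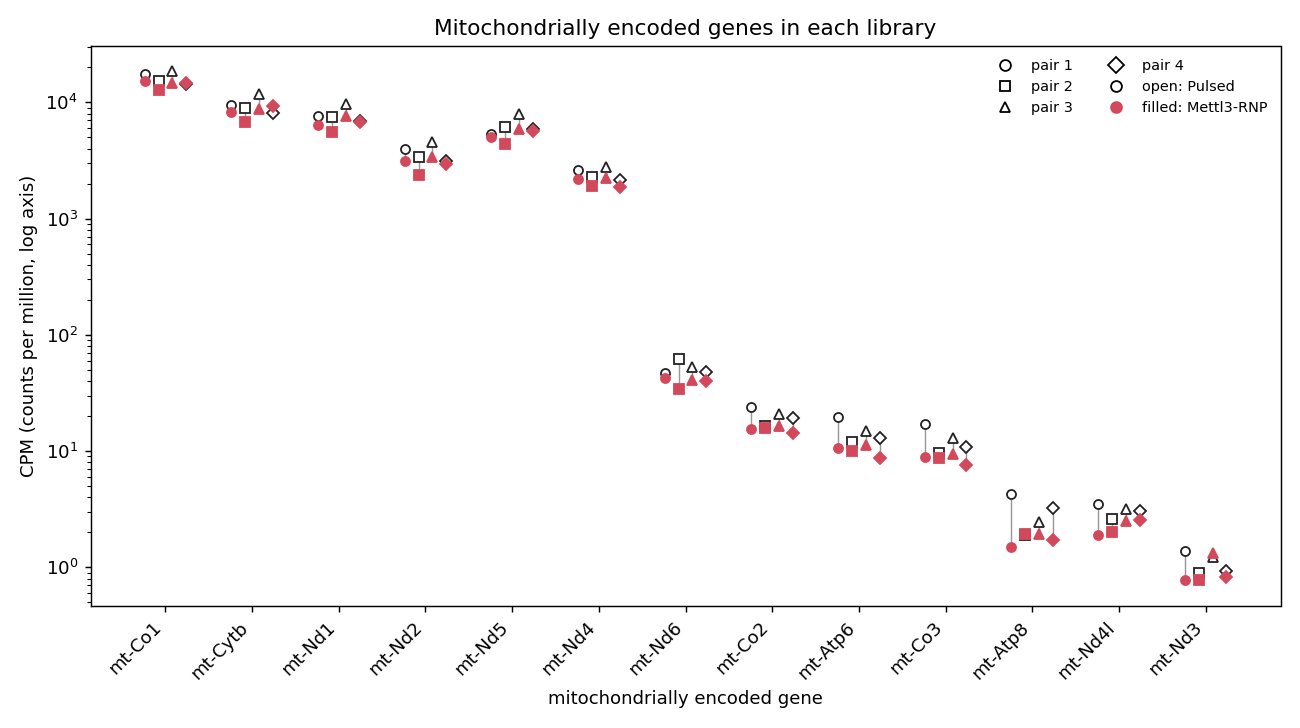
CPM (log axis) of the 13 mitochondrially encoded genes, ordered by level per kb, in each library. Marker shapes stand for pairs 1 to 4, open markers for Pulsed and filled red markers for Mettl3-RNP, and grey lines join a pair. In pair 4 the markers of mt-Co1, mt-Cytb and mt-Nd1 nearly coincide or reverse, whereas those of mt-Atp6, mt-Co3 and mt-Atp8 stay apart.

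The median log2 difference of the 7 genes under 90% copied was -0.19, -0.44, -0.37 and -0.05 in pairs 1 to 4. That of the 6 copied genes was -0.87, -0.17, -0.33 and -0.47. The median of the copied genes was thus furthest from 0 in pairs 1 and 4, where that of the others was nearest. The pseudogenes of the chromosome 1 copy varied between pairs as well. The share of all counts taken by Gm28661 had log2 ratios of -0.79, 0.06, -0.12 and -0.18 and that of mt-Co2 -0.62, 0.00, -0.28 and -0.42 in pairs 1 to 4. For Atp6-ps the log2 ratios were -0.94, 0.06, -0.22 and -0.69 and for mt-Atp6 -0.86, -0.19, -0.37 and -0.58. Both copies were lowest in pair 1, whereas Gm28438, the copy of mt-Nd3, was lowest in pair 4 (-0.99, 1.00, 0.93 and -1.35) and Gm29216, the copy of part of mt-Co1, in pair 3 (-0.38, -0.09, -0.63 and 0.22).

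Summed over the 13 genes, the mitochondrially encoded members took 4.88%, 4.29%, 4.92% and 4.20% of the counts of Pulsed 1 to 4 and 4.26%, 3.49%, 3.90% and 4.30% of those of Mettl3-RNP 1 to 4. The share was lower in pairs 1 to 3 and slightly higher in pair 4, and the groups overlapped. The mean log2 ratio was -0.20 ± 0.17 (SD, n = 4 pairs). The mitochondrial ribosomal RNAs took 0.377%, 0.320%, 0.312% and 0.313% of counts in Pulsed and 0.359%, 0.322%, 0.435% and 0.330% in Mettl3-RNP, with a mean log2 ratio of 0.12 ± 0.25 (SD, n = 4 pairs). The mitochondrial tRNAs, at 19.6 to 37.5 counts in 1e+06 in Pulsed and 29.3 to 49.7 in Mettl3-RNP, had log2 ratios of 0.57, 0.73, 0.58 and -0.02 in pairs 1 to 4, a mean of 0.47 ± 0.33 (SD, n = 4 pairs). The libraries were enriched for poly(A) RNA, so none of these shares is one of total RNA.

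Among the 91 nuclear encoded members 82 passed the count filter, and a broad set of small fitted decreases stood beside a single called increase. Of the 82, 62 had a fitted value below Pulsed and 20 above, with a median log2 fold change of -0.10. One was called, Uqcrfs1, which was higher. No nuclear member was called lower by edgeR or limma-voom, whereas DESeq2 called 2 higher and 1 lower, and the fit after removeBatchEffect called 3 higher and 25 lower, where they called 9.70% and 30.5% of all genes. At an unadjusted p under 0.05 there were 15 of 82, against 22.5% of all genes. Of the 82, 26 were lower in 4 of 4 pairs, 31.7% against 16.0% of all genes tested, and 5 were higher in 4 of 4 pairs against 15.7% of all genes.

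The size of the difference varied between pairs. The median of the 82 nuclear members was -0.11, -0.06, 0.02 and -0.22 in pairs 1 to 4, where the median over all genes tested lay between -0.03 and 0.02. Without replicate 4 the fitted median was -0.04. The nuclear members together took 0.560%, 0.691%, 0.675% and 0.714% of counts in Pulsed 1 to 4 and 0.527%, 0.666%, 0.707% and 0.628% in Mettl3-RNP 1 to 4, and the groups overlapped. The standard errors of the 82 fitted values had a median of 0.08 and ran from 0.06 to 0.25. The SD of the 4 pair medians was 0.10.

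**Figure D3:**
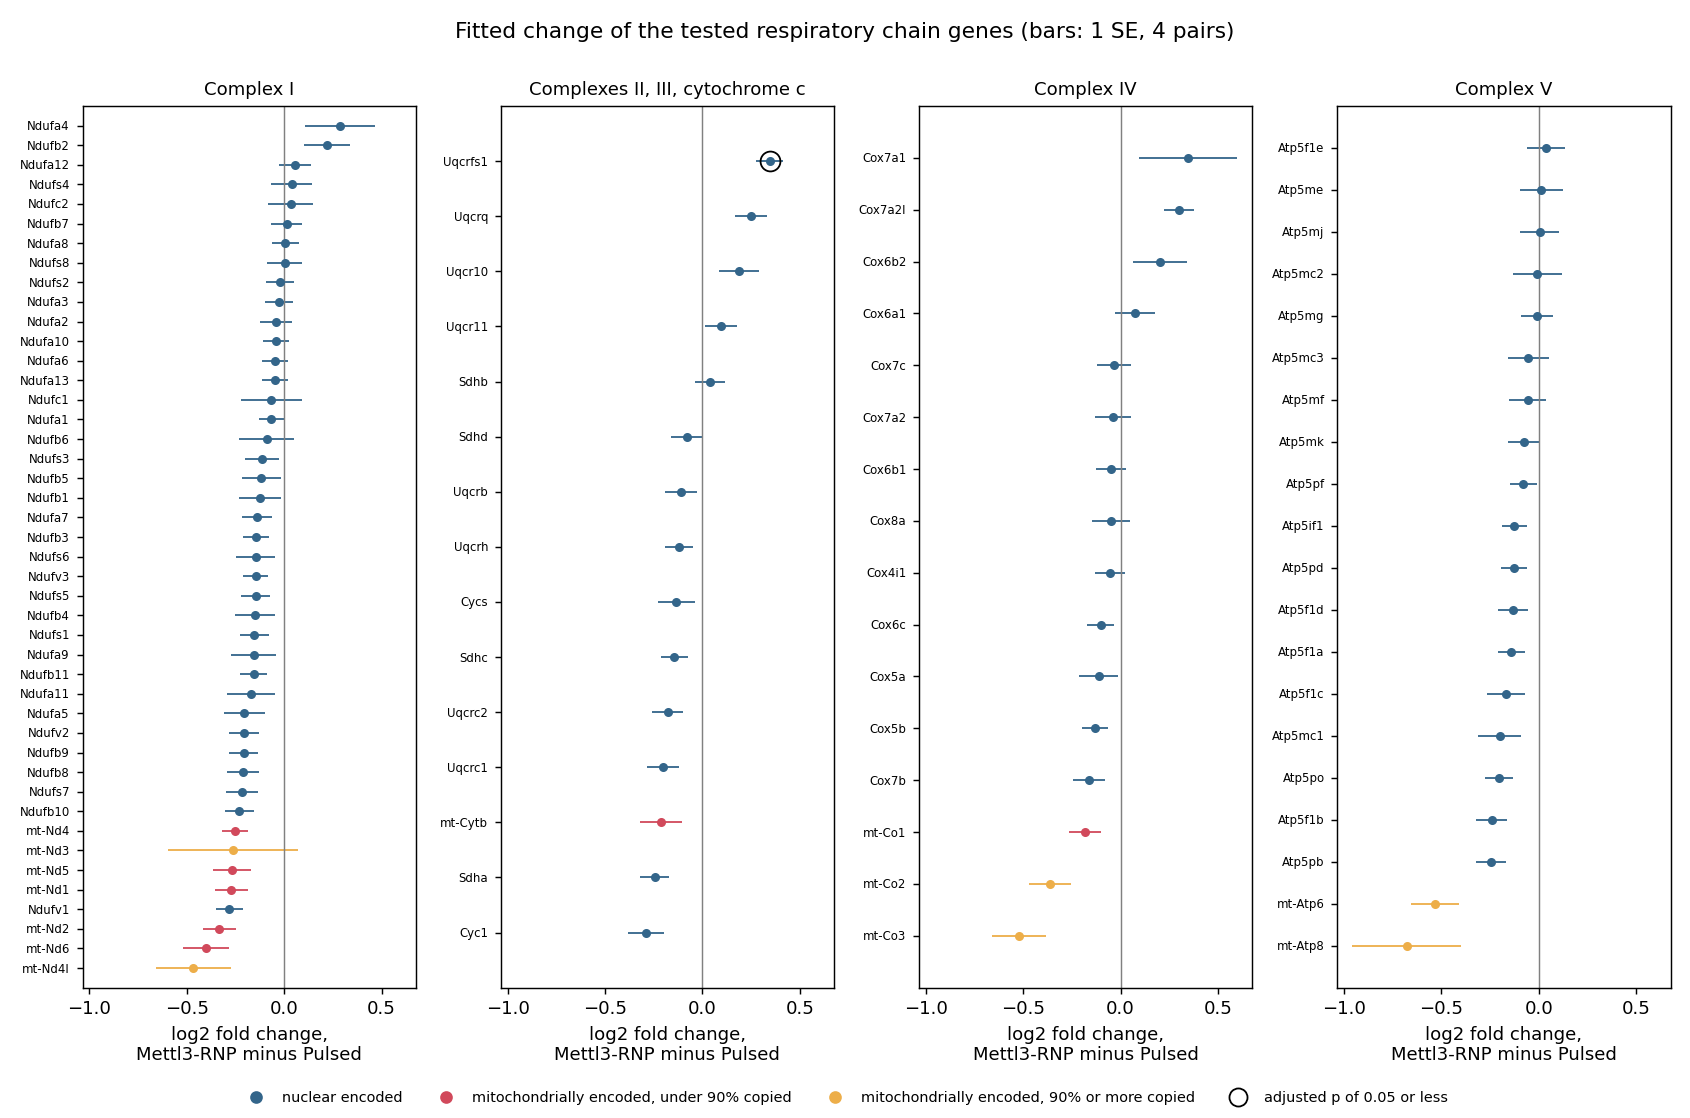
Fitted log2 fold change (Mettl3-RNP minus Pulsed) of the 95 tested members by complex, each sorted by value, with bars of 1 SE from the fit over 4 pairs. Blue marks nuclear encoded genes, red and yellow mitochondrially encoded genes under and over 90% copied, and a black ring an adjusted p of 0.05 or less. Only Uqcrfs1 is ringed, and every mitochondrially encoded gene lies left of 0.

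In complex I, where NADH is oxidised, 29 of 37 tested nuclear members were fitted lower and the median was -0.12. The lowest of these nuclear members was Ndufv1, which carries the NADH-binding flavin site. It had 44.4, 47.4, 51.1 and 45.1 CPM in Pulsed 1 to 4 and 34.7, 39.1, 45.6 and 35.9 CPM in Mettl3-RNP 1 to 4. It was lower in every pair, and the groups overlapped only through Mettl3-RNP 3 (log2 fold change -0.28, SE 0.07, adjusted p = 0.068). The highest was Ndufa4 at 0.29 (SE 0.18, adjusted p = 0.404), with 23.1, 37.1, 30.01 and 51.8 CPM in Pulsed and 25.1, 52.0, 55.8 and 40.2 CPM in Mettl3-RNP, higher in 3 pairs and lower in pair 4. Its paralog Ndufa4l2 had at most 1 count in any library and was not tested. Per kb of canonical transcript, nuclear members ran from 2.45 CPM for the accessory subunit Ndufb2 to 240 CPM for the accessory subunit Ndufa1. Their log2 fold changes were 0.22 (adjusted p = 0.315) and -0.07 (adjusted p = 0.617). These transcripts have 4389 and 452 bases, so the order also rests on annotated length. In CPM, Ndufc1 was below Ndufb2, at a mean of 6.39 against 9.92 in Pulsed.

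In complex II, succinate dehydrogenase, 3 of 4 members were fitted lower. Sdha, the flavoprotein that oxidises succinate, was both the highest per kb (61.9 CPM) and the lowest in fold change. It had 210, 214, 171 and 230 CPM in Pulsed and 190, 156, 148 and 204 CPM in Mettl3-RNP, with each library below its partner and the groups overlapping (log2 fold change -0.24, SE 0.08, adjusted p = 0.111). Sdhb, the iron-sulfur subunit, had the lowest level (12.4 CPM per kb) and a log2 fold change of 0.04 (SE 0.08, adjusted p = 0.825).

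Among the nuclear members, those of complex III held the widest spread. Uqcrfs1, the Rieske iron-sulfur protein that takes electrons from ubiquinol, had 40.1, 54.2, 73.4 and 50.03 CPM in Pulsed 1 to 4 and 49.5, 71.1, 100.2 and 59.1 CPM in Mettl3-RNP 1 to 4. Each Mettl3-RNP library was above its partner, by 0.30, 0.39, 0.45 and 0.24 in log2 CPM in pairs 1 to 4, and the groups overlapped. It was the only member past the threshold (log2 fold change 0.35, SE 0.07, adjusted p = 0.037). The call needed all 4 pairs and the block on replicate number. The adjusted p was 0.079 to 0.187 with any one pair left out and 0.999 without the block. It was 0.096 with every gene of at least 1 count tested. Uqcrfs1 (ENSMUSG00000038462) lies on the minus strand at chr13:30723448-30729345 and its transcript has 2 exons. That transcript holds the sequence GGACT, the form of the m6A context most often methylated, at 2 places, both in the 3′ untranslated part of exon 2. They are shown in capitals with their flanks on the transcript's strand, at chr13:30724693-30724717 and chr13:30723931-30723955, because the study is about m6A. Methylation was not measured in these libraries.
Uqcrfs1, first site: ttagacacgtGGACTcagggcctag
Uqcrfs1, second site: cacttagttgGGACTcttctccata

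Of the 9 nuclear members of complex III, 4 were fitted higher and 5 lower, and those other than Uqcrfs1 did not pass the test. Among the small accessory subunits Uqcrq, Uqcr10 and Uqcr11 were fitted higher, and Uqcrb and Uqcrh lower. Uqcrq, an accessory subunit, had 25.04, 37.2, 43.8 and 33.9 CPM in Pulsed and 25.4, 48.8, 55.0 and 40.3 CPM in Mettl3-RNP, nearly equal in pair 1 and higher in the other pairs (log2 fold change 0.25, SE 0.08, adjusted p = 0.125). Cyc1, cytochrome c1, which passes electrons from the Rieske protein to cytochrome c, was at the other end and had the lowest value of any nuclear member. It had 33.4, 41.8, 40.5 and 42.6 CPM in Pulsed and 27.6, 34.4, 38.9 and 29.1 CPM in Mettl3-RNP, lower in each pair but little changed in pair 3 (log2 fold change -0.29, SE 0.09, adjusted p = 0.115). Per kb, Uqcrb was the highest (117 CPM) and Uqcr11 the lowest (20.5 CPM), with log2 fold changes of -0.11 (adjusted p = 0.479) and 0.10 (adjusted p = 0.542). Cycs, the cytochrome c gene itself, had a log2 fold change of -0.14 (SE 0.09, adjusted p = 0.458), lower in 3 pairs and higher in pair 3.

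**Figure D4:**
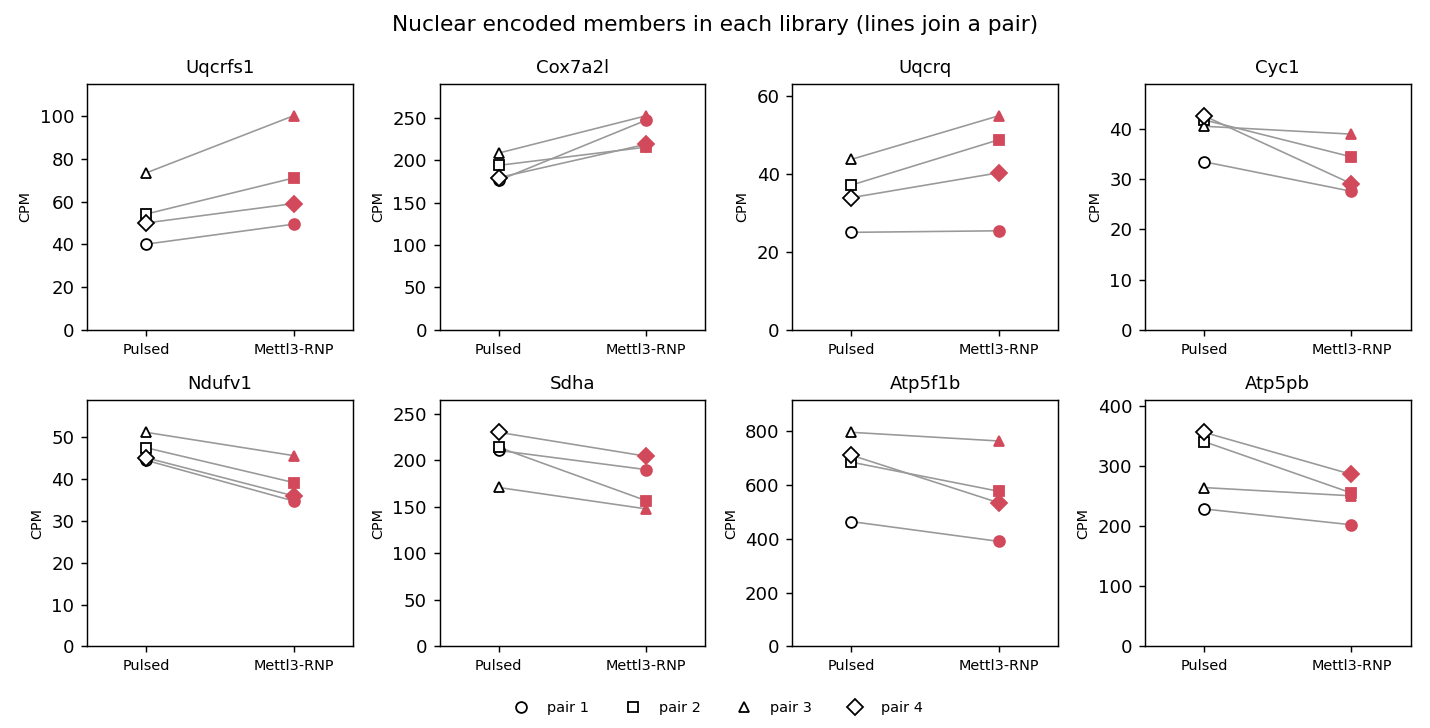
CPM of 8 nuclear encoded members in each library, with each axis starting at 0. Marker shapes stand for pairs 1 to 4, open markers for Pulsed, filled red markers for Mettl3-RNP, and lines join a pair. All 4 lines run upward for Uqcrfs1, Cox7a2l and Uqcrq, and all 4 run downward for Cyc1, Ndufv1, Sdha, Atp5f1b and Atp5pb.

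In complex IV, cytochrome c oxidase, 13 of 19 nuclear members were tested, with a median log2 fold change of -0.05 and 9 fitted lower. Among the nuclear members the broadly expressed isoforms carried the level: Cox4i1 had 275 CPM per kb, the highest of them, Cox8a 258 and Cox6a1 201. Their alternatives known from other tissues were at or near the limit of counting. Cox4i2 (lung) had at most 7 counts in a library, Cox6a2 and Cox8b (both heart and muscle) at most 3, and Cox8c and Cox7b2 (testis) had none, so none of these was tested. Cox7a1, the heart and muscle isoform, passed the filter at 3.63 CPM per kb against 61.6 for Cox7a2, and Cox6b2, the testis isoform, at 9.06 against 161 for Cox6b1.

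Within these isoform groups no fold change passed the test. The log2 fold changes were -0.05 for Cox4i1, Cox6b1 and Cox8a, 0.07 for Cox6a1 and -0.04 for Cox7a2, with adjusted p of 0.736 to 0.842. They were 0.35 for Cox7a1 (SE 0.25, adjusted p = 0.476) and 0.20 for Cox6b2 (SE 0.14, adjusted p = 0.443). Cox7a2l, a relative of Cox7a2, came closest. It had 176, 194, 208 and 179 CPM in Pulsed and 247, 215, 252 and 219 CPM in Mettl3-RNP. All 4 Mettl3-RNP libraries were above all 4 Pulsed libraries (log2 fold change 0.30, SE 0.08, adjusted p = 0.070). Of its 50-base windows, 46.8% occur exactly elsewhere in the genome, so part of its reads could be placed at other sites. The lowest nuclear member of the complex was Cox7b at -0.16 (adjusted p = 0.285).

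In complex V, 15 of 18 tested nuclear members were fitted lower and the median was -0.10. Atp5f1b, the catalytic beta subunit, was the highest per kb of the nuclear members (319 CPM). It had 463, 684, 795 and 710 CPM in Pulsed and 390, 576, 762 and 533 CPM in Mettl3-RNP, below its partner in each pair by between 0.06 and 0.41 in log2 CPM (log2 fold change -0.24, SE 0.08, adjusted p = 0.117). Atp5pb, a subunit of the peripheral stalk, was the lowest nuclear member of the complex at -0.25 (SE 0.08, adjusted p = 0.115). It had 229, 341, 264 and 356 CPM in Pulsed and 202, 255, 250 and 286 CPM in Mettl3-RNP. Atp5f1e, the epsilon subunit, was the highest in fold change at 0.04 (SE 0.10, adjusted p = 0.865), and Atp5mj had the lowest level (7.35 CPM per kb).

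The ATP synthase c ring is built from identical proteins made by several genes, and the inhibitor Atp5if1 blocks ATP hydrolysis by the enzyme. Atp5mc1, Atp5mc2 and Atp5mc3 had 52.6, 75.7 and 82.1 CPM per kb and log2 fold changes of -0.20, -0.01 and -0.05, with adjusted p of 0.336, 0.982 and 0.808. Their order is uncertain, since 84.4% of the windows of Atp5mc1 and 88.4% of those of Atp5mc2 occur elsewhere in the genome, against 0% for Atp5mc3. Atp5if1, at 219 CPM per kb, was lower by a small amount in each pair (log2 fold change -0.13, SE 0.06, adjusted p = 0.293).

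**Figure D5:**
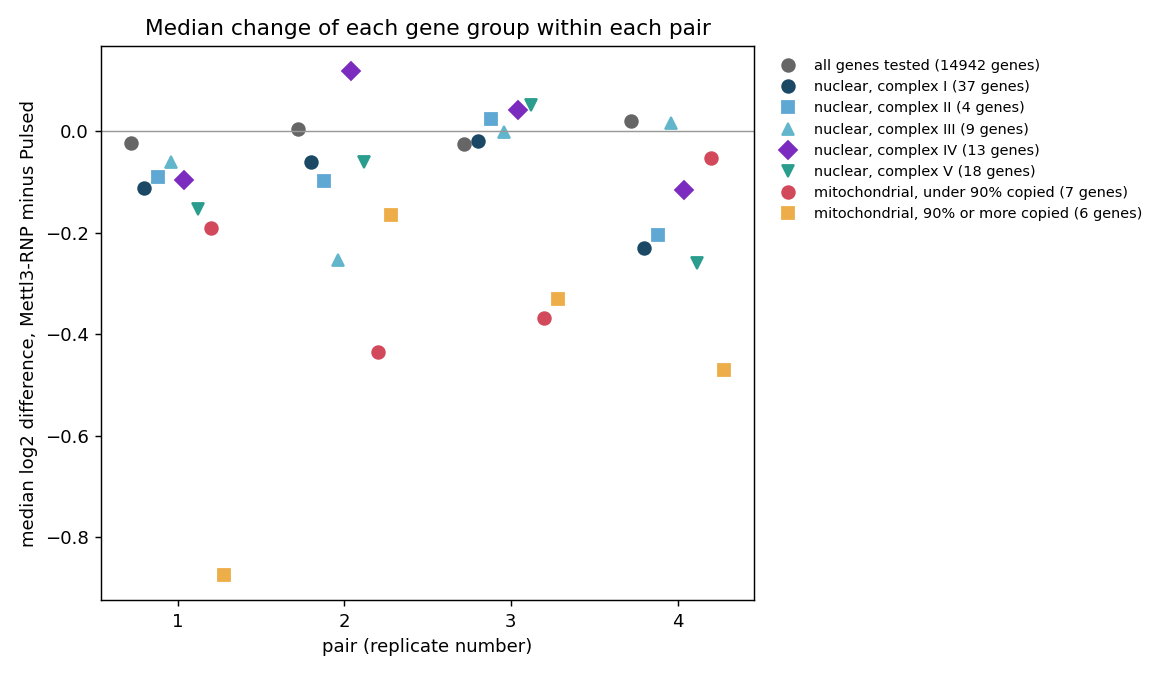
Median log2 difference (Mettl3-RNP minus Pulsed) within each pair for the tested nuclear genes of each complex, for the mitochondrially encoded genes under and over 90% copied, and for all genes tested. Both mitochondrial groups lie below 0 in all 4 pairs, nuclear complex I does too, the other nuclear complexes lie on both sides of it, and all genes stay between -0.03 and 0.02.

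Set side by side, the nuclear median was -0.10 and the mitochondrial median -0.33 on the log2 scale, a difference of 0.24. The mitochondrial median pools the copied genes: it was -0.27 for the 7 genes under 90% copied and -0.49 for the 6 copied ones. The difference is thus smaller without the copied genes. Within pairs 1 to 4 the medians were -0.11, -0.06, 0.02 and -0.22 for nuclear members, and -0.36, -0.27, -0.35 and -0.20 for all 13 mitochondrial ones. The mitochondrial median was thus below the nuclear one in pairs 1 to 3. In pair 4 the order depended on the copied genes: the median was -0.05 for the 7 genes under 90% copied, above the nuclear one, and -0.47 for the 6 copied genes, below it. The ratio of summed mitochondrial to summed nuclear counts was 8.72, 6.21, 7.29 and 5.88 in Pulsed 1 to 4 and 8.08, 5.24, 5.52 and 6.84 in Mettl3-RNP 1 to 4. It differed by more among the Pulsed libraries than within any pair, and it was higher in Mettl3-RNP in pair 4. No test was run on these sums.

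The canonical transcripts of the tested nuclear members had a median of 4 exons and 1090 bases, against 9 exons and 3503 bases for the 11961 other protein-coding genes tested. Their fitted values differed by exon number. The median log2 fold change was 0.22 for the 4 tested members with 2 exons (Uqcrfs1, Uqcrq, Uqcr10 and Cox8a), -0.04 for the 20 with 3 exons, -0.08 for the 26 with 4 exons and -0.15 for the 32 with 5 or more. The other protein-coding genes had medians of 0.18, 0.11, 0.04 and -0.01 in the same classes, in the same order. The members with 2 exons were thus near the other genes of that class, and those with more exons were lower than theirs. These classes were set after the values were known.

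The sense strand of each canonical transcript was also searched for GGACT. At least 1 site was present in 70.7% of the 82 nuclear members, with a median of 1 site and 0.99 per kb, in 38.5% of the 13 mitochondrial ones, and in 94.1% of the other protein-coding transcripts, with a median of 4 sites and 1.04 per kb. Per unit length the nuclear members were close to the other genes. Sequence copies were common among them too: for 12 tested nuclear members 25% or more of the windows occur exactly elsewhere, up to 88.4% in Atp5mc2 and 75.4% in Ndufs5. Their median log2 fold change was -0.12, against -0.08 for the 70 others.

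The genes that assemble, feed and maintain the chain had list medians from -0.12 to 0.08. The calls in each list stand against the 3.74% of all genes called, and the unadjusted counts against 22.5%. Of 46 tested assembly factors 18 were fitted lower and the median was 0.08, and 1 was called. Sdhaf2, which inserts the flavin into Sdha, was at 48.0 ± 17.1 CPM in Pulsed and 65.7 ± 14.9 CPM in Mettl3-RNP (SD, n = 4), higher by 0.25, 0.36, 0.88 and 0.54 in log2 CPM in pairs 1 to 4 (log2 fold change 0.50, SE 0.11, adjusted p = 0.046). Of 18 genes of the TCA cycle and pyruvate dehydrogenase 12 were fitted lower, with a median of -0.10, and 1 was called. Ogdh, the E1 subunit of the oxoglutarate dehydrogenase complex, was at 174 ± 26.4 CPM in Pulsed and 263 ± 22.6 CPM in Mettl3-RNP (SD, n = 4), higher in each pair (log2 fold change 0.60, SE 0.09, adjusted p = 0.018).

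None of the 32 genes of mitochondrial DNA maintenance and expression was called (median -0.03, 4 at an unadjusted p under 0.05), nor any of 12 tested nuclear regulators of respiration genes (median 0.02, 1 at an unadjusted p under 0.05) or of 26 protein import genes (median -0.03, 8 at an unadjusted p under 0.05). DESeq2 called 0, 1 and 2 of these and limma-voom 0 of each. Of 17 tested mitochondrial stress response genes 12 were fitted lower and 2 were called, both higher. Gdf15, a secreted stress cytokine, was at 4.48 ± 2.89 CPM in Pulsed and 14.8 ± 9.82 CPM in Mettl3-RNP (SD, n = 4), with a fitted log2 fold change of 1.63 (SE 0.33, adjusted p = 0.037). Its differences in log2 CPM were 0.67, 2.47, 0.83 and 2.32 in pairs 1 to 4. Pck2, the mitochondrial phosphoenolpyruvate carboxykinase, was at 50.4 ± 19.7 CPM in Pulsed and 84.8 ± 14.2 CPM in Mettl3-RNP (SD, n = 4), higher in each pair (log2 fold change 0.83, SE 0.15, adjusted p = 0.031). Without replicate 2 none of the called list genes kept its call, with adjusted p of 0.094 for Ogdh, 0.135 for Sdhaf2, 0.1497 for Gdf15 and 0.112 for Pck2. Without replicate 1 those of Sdhaf2 and Pck2 were 0.084 and 0.064, and that of Sdhaf2 was 0.063 without replicate 3 and 0.106 without replicate 4.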

How the data were processed

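Poly(A)-enriched RNA of 8 BMMC libraries, 4 Pulsed and 4 Mettl3-RNP, was sequenced as paired 50-base reads. The authors aligned reads to GRCm39 with HISAT2 2.2.1 and deposited featureCounts 2.0.1 counts per Ensembl gene, after FastQC 0.11.9. The strand and multiple-mapping settings of the counting are not given in the sources used here. Gene names, types and coordinates came from GENCODE M39, which named 56017 of 56748 identifiers. Raw counts were fitted in R 4.3.3 with edgeR 4.0.16 (filterByExpr, minimum count 10, TMM factors, glmQLFit and glmQLFTest) on the whole table with replicate number as a block. This tested 14942 genes, with Benjamini-Hochberg adjustment over all of these. A gene was called at an adjusted p of 0.05 or less. Log2 CPM used a prior count of 2. CPM used TMM-scaled library sizes. CPM per kb divided by the length of the canonical transcript, although counts can come from longer or shorter isoforms. Rankings per kb therefore depend on that annotated length.

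The series text names 4 mice and both groups carry numbers 1 to 4. Deviations from the group means correlated at 0.825, 0.489, 0.879 and 0.765 within pairs 1 to 4 over 11985 genes, and at most at 0.183 between libraries of other numbers, so the numbers were taken as mice. On simulated counts the fit recovered 50 of 67 genes changed 2-fold. The tested members had smaller fitted changes, with log2 fold changes of -0.68 to 0.35, so this does not show how changes of their size are recovered. Exact 50-base matches were sought in GRCm39 after a blastn 2.17.0 search. Alternatives were DESeq2 1.42.0, limma 3.58.1 (voom, and trend after the study's removeBatchEffect), other scaling, filters, no block and each pair left out.

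The members and gene lists were chosen with earlier results of these data known. Named genes were all 13 mitochondrial members, called nuclear members and list genes, the extremes of fold change and of level per kb in each complex, and the listed paralog groups. Uqcrq, Ndufs5, Uqcr10, Uqcrh, Cox7b2, Cd68, Cd200r3 and the pseudogenes on chromosome 1 were named beyond this rule after their values were seen.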

Additional observations from a re-analysis of the deposited data

Results flagged for a closer look

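In 116 groups of 4 libraries examined (CPM of 53 named tested genes and shares of counts), 3 had a library whose gap to its nearest neighbour exceeded Dixon's critical value, where chance alone flags about 1 in 20 groups, or 5.8 of 116. mt-Nd3 was at 1.34 CPM in Mettl3-RNP 3, from 40 counts, against 0.771 to 0.827 CPM in the other Mettl3-RNP libraries, a gap of 0.902 of the group's range. The mitochondrial ribosomal RNAs took 0.377% of counts in Pulsed 1, against 0.312% to 0.320% in the other Pulsed libraries, a gap of 0.868 of the range. Pulsed 1 was also the library with the highest mt-Atp6, mt-Co3, mt-Co2 and mt-Atp8. Mettl3 itself was at 11.2 CPM in Pulsed 3, against 24.5 to 26.5 CPM in the other Pulsed libraries, a gap of 0.868 of the range. The causes were not tested.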

How the results depend on the processing

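No result changed direction under any alternative run, and the medians of both genomes moved by less than 1 SD of their 4 pair medians (0.10 nuclear, 0.07 mitochondrial). Leaving out 1 pair gave nuclear medians of -0.13 to -0.04, mitochondrial medians of -0.38 to -0.29, 0 nuclear calls each time (a range of 0 to 0) and log2 ratios of the mitochondrial share of -0.28 to -0.15. Without the replicate block, 0 nuclear members and 0 of all genes were called (579 at an unadjusted p under 0.05), with medians of -0.08 and -0.34. Nuclear calls were 2 with library size alone (Uqcrfs1 and Cox7a2l), 3 with 10 counts required in every library, 3 with DESeq2, 28 after removeBatchEffect and 0 with every gene of at least 1 count. Over all genes tested the calls were 3.98% with library size alone, 7.67% with 10 counts required, 2.95% with at least 1 count and 3.74% in the main comparison. Mitochondrial calls were 2 with every gene of at least 1 count, 1 with 10 counts required, 6 with DESeq2 and 10 after removeBatchEffect. After removeBatchEffect 4564 of all genes were called, against 559 in the main comparison and 1449 with DESeq2; that fit leaves the block out of its degrees of freedom by construction. Over all genes, leaving out pairs 1 to 4 in turn gave 332, 26, 383 and 345 calls. Of 520 combinations of 1 of 41 named members and an alternative, 483 kept their side of the threshold, 31 passed it newly and 6, all Uqcrfs1, fell short of it. For 12 other named genes (called list and marker genes, Mettl3, Cd68, Cd200r3 and Uqcrq) 30 of 156 fell short and 6 passed newly; every called one of them fell short without the block and, Mettl3 apart, without replicate 2. Low counts limit mt-Nd3, mt-Atp8 and mt-Nd4l, and the part of read placement in the values of the 6 copied genes was not tested.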
